A study of Mus musculus with 4 samples.

Results

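Levels of 10 immediate early genes were followed across the cell classes that could be gated from marker genes in whole mouse brain: *Fos*, *Fosb*, *Jun*, *Junb*, *Jund*, *Egr1*, *Atf3*, *Ier2*, *Ier3* and *Zfp36*. They were found by gene symbol and are 10 of the 55573 genes listed in the deposited count tables, and each of the 10 had unique molecular identifiers (UMIs, 1 per captured RNA molecule) in the kept cells of every mouse. The study fed male C57BL/6J mice a purified AIN-93M diet with 1% cellulose and either no inulin (Low fiber) or 5% inulin (High fiber), a fermentable soluble fiber. The diets began at 3 to 4 months of age in Adult mice and at 23 to 24 months in Aged mice. They ran for about 2 months, so the brains were taken at older ages than these. Before the diets came 2 months on a standard AIN-93M diet, with used bedding mixed among cages of mice of like age. Adult mice came from an in-house colony and Aged mice from the National Institute on Aging, so age and source cannot be told apart. Whole brains were dissociated with warm enzymes, freed of myelin, red blood cells and dead cells, and the RNA of single cells was tagged by cell on a 10X Genomics Chromium instrument. There was 1 mouse for each age and diet, 4 in all, so that each age and each diet had 2 mice, and an exact two-sided permutation test of 2 mice against 2 cannot give a *p* under 0.333.

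Immediate early genes are transcribed within minutes of a stimulus, before any new protein is made, because the transcription factors that switch them on are already present in the resting cell. Fos and Fosb pair with Jun, Junb or Jund to form the dimeric transcription factor AP-1, and Atf3 belongs to the same leucine zipper superfamily. Egr1 is a zinc finger transcription factor, Ier2 and Ier3 are early response proteins, and Zfp36 (tristetraprolin) binds AU-rich elements in cytokine mRNAs and speeds their decay. Neurons switch these genes on with firing, and microglia and vessel cells with injury or inflammatory signals. They are also known to rise during warm enzymatic dissociation of brain tissue, and induction before dissociation and induction during it cannot be told apart in these libraries, since all cells were counted after it.

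In the GRCm38 build (GENCODE vM21), *Fos* lies at chr12:85473890-85477273 on the plus strand, *Jund* at chr8:70698949-70700616 and *Ier3* at chr17:35821684-35822923, also on the plus strand, as is *Egr1*. On the minus strand are *Fosb* (chr7:19302696-19310051), *Jun* (chr4:95049034-95052222), *Junb* (chr8:84974484-84978718), *Atf3* (chr1:191170296-191218039), *Ier2* (chr8:84661331-84662852) and *Zfp36* (chr7:28376784-28380253). All 10 are annotated as protein coding.

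RefSeq promoter sequences (GRCm38.p6) were matched by symbol for 8 of the 10 genes, all but *Egr1* and *Ier2*, and the 250 bases before the start site were searched on both strands for motifs whose letters were chosen with the data known. The CRE core, TGACG, the letters that CREB and ATF proteins recognise, was in 4 of the 8, against 17.8% of 32851 promoters of the same length. The full CRE, TGACGTCA, which contains this core, was in 0 of the 8 (1.55% of all), and the AP-1 site TGANTCA was also in 0 (6.75% of all). The CArG box, the serum response factor motif, was in *Zfp36* (1.47% of all promoters). *Jun* and *Jund*, which are AP-1 subunits as well, matched none of these motifs. The 4 promoters with the CRE core, those of *Fos*, *Fosb*, *Junb* and *Atf3*, are shown with the matched letters in capitals, each 5′ to 3′ on the strand of the gene.
*Fos*, chr12:85473640-85473889, plus strand: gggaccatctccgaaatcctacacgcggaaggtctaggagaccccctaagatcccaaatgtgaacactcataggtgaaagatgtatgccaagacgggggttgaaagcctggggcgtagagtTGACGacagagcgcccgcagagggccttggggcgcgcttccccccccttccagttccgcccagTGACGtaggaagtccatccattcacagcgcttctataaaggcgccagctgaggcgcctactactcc
*Fosb*, chr7:19310046-19310295, minus strand: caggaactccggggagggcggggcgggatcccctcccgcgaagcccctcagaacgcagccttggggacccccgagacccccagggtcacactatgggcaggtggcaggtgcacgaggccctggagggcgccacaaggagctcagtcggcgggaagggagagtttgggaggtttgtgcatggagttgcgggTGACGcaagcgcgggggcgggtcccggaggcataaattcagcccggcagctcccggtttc
*Junb*, chr8:84978749-84978998, minus strand: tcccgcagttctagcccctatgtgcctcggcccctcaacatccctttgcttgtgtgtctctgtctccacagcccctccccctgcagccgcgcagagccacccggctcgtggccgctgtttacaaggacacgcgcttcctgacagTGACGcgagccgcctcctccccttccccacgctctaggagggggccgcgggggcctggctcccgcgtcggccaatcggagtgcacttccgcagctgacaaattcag
*Atf3*, chr1:191183334-191183583, minus strand: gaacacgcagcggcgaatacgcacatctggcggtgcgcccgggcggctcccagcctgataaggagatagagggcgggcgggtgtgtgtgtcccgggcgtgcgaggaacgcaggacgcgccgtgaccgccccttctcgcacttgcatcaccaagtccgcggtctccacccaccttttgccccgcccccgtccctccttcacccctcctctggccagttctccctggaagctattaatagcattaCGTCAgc
*Fos* held the CRE core from 129 and from 66 bases before the start. It began at 60 bases in *Fosb* and at 106 in *Junb*. In *Atf3* it began at 7 bases and stood on the reverse strand, so that its capitals read CGTCA. The CArG box of *Zfp36* began 58 bases before the RefSeq start, in a window that lies inside the GENCODE gene. The RefSeq start of *Atf3* likewise lies inside the GENCODE gene. The window searched for *Jund*, chr8:70697489-70697738, does not adjoin the GENCODE start at 70698949. A match is a description of letters, not a site.

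The 4 libraries held 36876 barcodes and 423842902 UMIs, of which 28824 cells were kept, with a median of 6158.5 to 6715 UMIs per cell in each mouse. Barcode sequences shared between mice numbered 192 and were kept apart by mouse. Cells were put in a class by their markers alone, none of them an immediate early gene, and the classes are called "-like" for that reason. Of 19 classes listed, 17 held at least 50 cells and are described, and 14 had at least 30 cells in every mouse and were tested. The remaining 3015 cells (10.5%) were in no class, 2065 of them because a second class came too close. In 10 of the 14 tested classes all listed markers were seen in at least 25% of the cells. The exceptions were 9 of 10 markers in T or NK-like cells, 6 of 8 in monocyte or dendritic-like cells, 5 of 7 in fibroblast-like cells and 6 of 9 in neuron-like cells. Levels below are UMIs per 10000 UMIs of the summed cells of a class, per mouse, and values are given in the order Adult Low fiber, Adult High fiber, Aged Low fiber and Aged High fiber unless stated otherwise.

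Over all kept cells the 10 genes together made up 31.2 and 31.9 UMIs per 10000 in the Adult mice and 40.8 and 40.7 in the Aged mice. That overall level hid a 41.1-fold range of class means among the tested classes. Macrophage-like cells, whose leading genes were *Pf4*, *Mrc1* and *F13a1* of border-associated macrophages, stood highest, with 177, 176, 192 and 143 and a mean of 172 ± 20.6 (SD, n = 4). Every mouse's macrophage-like level was above all levels of the next class. Monocyte or dendritic-like cells (90.6 ± 8.36), smooth muscle-like cells (79.0 ± 20.9) and microglia-like cells (75.5 ± 3.43, SD, n = 4 each) followed, with ranges that overlapped between neighbours in the order. Microglia-like cells varied least of these, with 71.5, 73.9, 77.4 and 79.1, and lay above granulocyte-like cells (57.7 ± 9.87) in every mouse.

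Endothelial-like cells came next among the tested classes at 29.3 ± 2.87, below all granulocyte-like levels. T or NK-like (24.6 ± 5.17), fibroblast-like (18.7 ± 4.34), neuroblast-like (15.2 ± 2.98), ependymal-like (13.9 ± 2.00), pericyte-like (13.6 ± 4.39) and neuron-like cells (13.2 ± 4.55, SD, n = 4 each) overlapped their neighbours. A step separated these from astrocyte-like cells, at 3.53, 3.52, 5.11 and 5.35, and choroid plexus-like cells, at 4.5, 5.12, 3.57 and 3.60, which overlapped each other. Red cell-like barcodes, led by the globin genes *Hbb-bs*, *Hba-a1*, *Hba-a2* and *Hbb-bt*, gave 2.95, 1.66, 1.65 and 3.33. Globin mRNA takes up part of their UMIs, so these levels cannot be read as a floor for the other classes. Olfactory ensheathing-like cells, present in 3 mice, averaged 4.98.

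**Figure D1:**
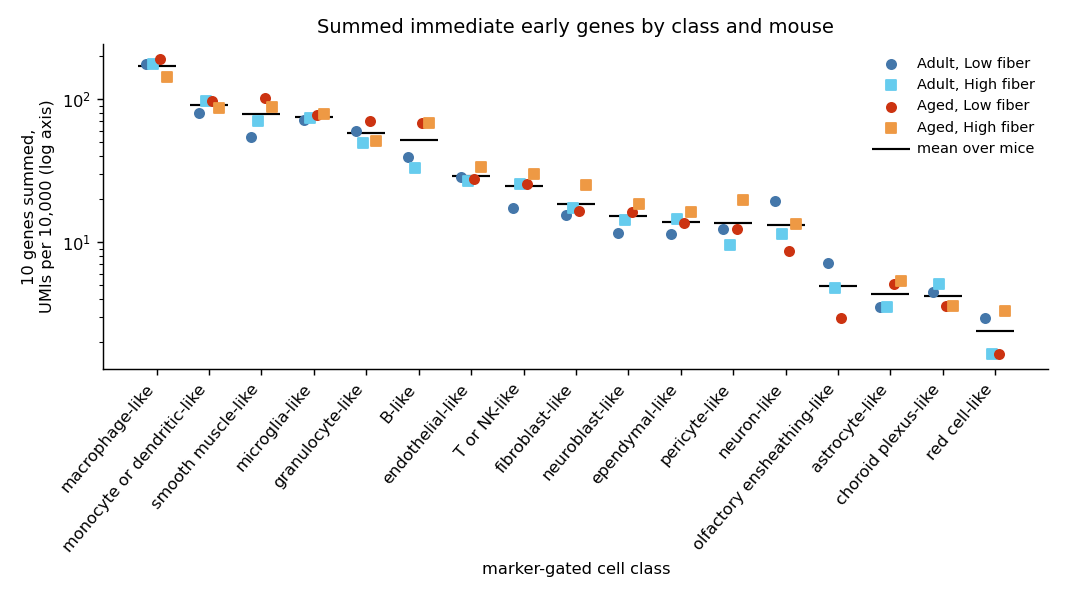
Summed level of the 10 immediate early genes (UMIs per 10000, log axis) in each marker-gated class, 1 point per mouse, with the mean as a bar. Macrophage-like cells lie between 143 and 192, microglia-like cells between 71.5 and 79.1, and astrocyte-like cells between 3.52 and 5.35.

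The members of AP-1 all stood highest in macrophage-like cells and differed in the order of the classes below. *Fos*, the most inducible subunit, reached 39.2, 38.3, 45.8 and 32.7 in macrophage-like cells, 17.2, 21.8, 30.3 and 24.6 in smooth muscle-like cells and 16.5, 27.2, 23.3 and 17.9 in monocyte or dendritic-like cells. Microglia-like cells held only 3.33, 3.91, 4.73 and 4.63, below granulocyte-like cells at 15.6, 13.7, 18.4 and 10.3 in every mouse. Among the tested classes the highest mean of *Fos* was 326-fold the lowest, that of choroid plexus-like cells. *Fosb*, its close relative, had a mean of 4.35 ± 0.609 in macrophage-like and 2.42 ± 0.484 in smooth muscle-like cells (SD, n = 4), against 0.416 ± 0.0218 in microglia-like cells.

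*Jun* followed another order. It stood at 52.0, 46.6, 46.6 and 40.7 in macrophage-like cells and at 28.4, 27.5, 23.9 and 24.7 in microglia-like cells, the second class in the order, while granulocyte-like cells held 2.44, 2.29, 1.92 and 2.29. *Junb* differed less across the myeloid classes, with means of 19.4, 16.2, 13.8 and 13 in macrophage-like, monocyte or dendritic-like, granulocyte-like and microglia-like cells and 14.4 in smooth muscle-like cells. *Jund*, the subunit with the most constant expression, spanned the narrowest range of the 10 over the tested classes. This range was 17.4-fold, from 26.6 in macrophage-like to 1.52 in astrocyte-like cells. *Atf3*, a stress-induced repressor and activator, stood at 7.32 ± 2.45 in macrophage-like, 5.87 ± 1.33 in monocyte or dendritic-like, 2.82 ± 0.907 in microglia-like and 2.72 ± 1.90 in smooth muscle-like cells (SD, n = 4 each). Granulocyte-like cells, at 0.61 ± 0.319, overlapped endothelial-like cells, at 0.509 ± 0.239, and the lowest classes included astrocyte-like and choroid plexus-like cells, with 0.064 ± 0.0395 and 0.0227 ± 0.0160 (SD, n = 4 each).

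Outside AP-1, *Egr1* was highest in smooth muscle-like cells (1.95, 2.65, 5.26 and 4.59), with neuroblast-like cells second at 1.83, 2.66, 3.92 and 3.40 and overlapping them. *Ier2* was highest in monocyte or dendritic-like cells, at 6.47 ± 0.855, and in granulocyte-like cells, at 5.6 ± 0.797. *Ier3*, a regulator of survival and NF-κB signalling, was the member for which endothelial-like cells stood beside macrophage-like cells at the top. Its levels in endothelial-like cells were 3.81, 3.16, 4.45 and 6.77, overlapping those of macrophage-like cells (4.15, 5.68, 5.69 and 2.75) and smooth muscle-like cells (2.63, 2.94, 5.33 and 6.30). *Zfp36* was high in the 4 myeloid classes, with 18.3 ± 3.02 in macrophage-like, 15.2 ± 1.24 in monocyte or dendritic-like, 13.4 ± 2.50 in granulocyte-like and 9.48 ± 1.45 in microglia-like cells (SD, n = 4 each), and endothelial-like cells held 0.873 ± 0.102.

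**Figure D2:**
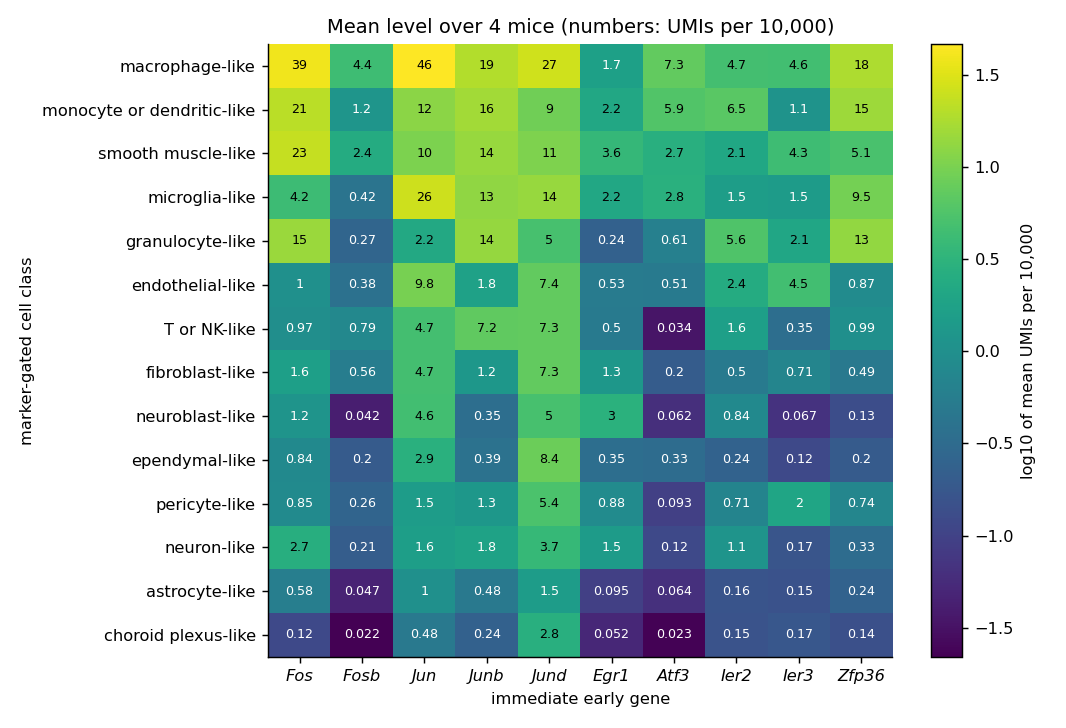
Mean level over 4 mice of each gene (columns) in each tested class (rows), coloured by log10 of the UMIs per 10000 and with that mean printed in each cell. *Jun* is second highest in microglia-like cells at 26.1, while *Fos* there is at 4.15, and *Ier3* is high in endothelial-like cells at 4.55.

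The make-up of the sum therefore differed by class. *Jund* gave 66.4% of the members' UMIs in choroid plexus-like cells, 60.3% in ependymal-like and 15.4% in macrophage-like cells. *Jun* gave 34.6% in microglia-like and 33.4% in endothelial-like cells against 3.87% in granulocyte-like cells. *Fos* gave 29.7% in smooth muscle-like and 25.2% in granulocyte-like cells, against 5.50% in microglia-like and 3.53% in endothelial-like cells. *Ier3* gave 15.5% in endothelial-like cells and *Egr1* 19.4% in neuroblast-like cells, against 1.95 and 2.85% for the same genes in microglia-like cells.

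In all, 5 pairs of classes were compared on sums per mouse with edgeR's quasi-likelihood test, with the mouse as a block and a gene was called when its adjusted *p* was below 0.05 and its fold above 1.5. Between microglia-like and astrocyte-like cells all 10 genes were higher in the former, where 28.4% of all genes tested were higher and 31.9% lower. The differences ran from 3.05 log2 for *Fos* (SE 0.35, adjusted *p* = 2.45e-11) to 5.55 for *Zfp36* (SE 0.21, adjusted *p* = 2.46e-31) and 5.76 for *Atf3* (SE 0.39, adjusted *p* = 7.16e-20). Endothelial-like cells also had all 10 above astrocyte-like cells (26.3% of all genes higher, 34.5% lower), with the largest difference in *Ier3*, 4.99 log2 (SE 0.25, adjusted *p* = 1.29e-25). The smallest, *Fos* at 0.78 (SE 0.33, adjusted *p* = 0.0311), was lost with DESeq2, without the upper limit on UMIs and without either Aged mouse.

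Microglia-like cells had 7 genes above and 1 below endothelial-like cells, against 28.3% of all genes higher and 23.7% lower. *Zfp36* (3.68 log2, SE 0.19) and *Junb* (3.12, SE 0.21) led the higher ones. *Ier3* was the one lower, by 1.42 log2 (SE 0.21, adjusted *p* = 1.84e-08). *Fosb* (0.42, SE 0.19, adjusted *p* = 0.0496) and *Ier2* (-0.41, SE 0.22, adjusted *p* = 0.10) were not called. A missed call does not show equal levels.

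The mural classes lay far apart. Smooth muscle-like cells, which wrap arteries and contract, had all 10 genes above pericyte-like cells, the mural cells of capillaries, where 14.2% of all genes were higher and 12.3% lower. *Fos* differed by 5.20 log2 (SE 0.43, adjusted *p* = 2.69e-15) and *Atf3* by 5.16 (SE 0.60, adjusted *p* = 1.72e-10), while *Jund* (1.39, SE 0.14) and *Ier3* (1.44, SE 0.24) differed least. Smooth muscle-like cells had a median of 8602.5 UMIs and pericyte-like cells of 3339, and the part of depth in the gate of each was not tested. Macrophage-like cells had 8 genes above microglia-like cells and 0 below (6.22% of all genes higher, 14.2% lower). *Fosb* (3.36, SE 0.24) and *Fos* (3.19, SE 0.35) led, whereas *Junb* (0.53, SE 0.20, adjusted *p* = 0.0456) did not reach the fold and *Egr1* stood at -0.41 (SE 0.29, adjusted *p* = 0.345). When cells were thinned to 2000 UMIs, 5 of the 8 were called. Microglia markers in macrophage-like sums were at 38.2 to 41.2 per 10000, 17.6% of the microglia-like level, and 9 of 10 had a UMI in every mouse.

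Genes listed beside the members, as regulators or neighbours in the same responses, were compared in the same fits. Of 21 other immediate early transcription factors and regulators tested, 5 were higher and 12 lower in microglia-like than in endothelial-like cells, with a median of -1.45 log2 where the members' median was 1.96. Of 16 feedback regulators of MAP kinase and NF-κB signalling, 10 were higher and 3 lower in that comparison, and of 12 inflammatory cytokines and chemokines all 12 were higher. Over all genes tested 28.3% were higher and 23.7% lower in it. Between smooth muscle-like and pericyte-like cells, 13 of 21 other immediate early regulators were higher and 0 lower, beside 7 higher and 1 lower of 11 matricellular and vascular early response genes. Upstream kinases and serum response factors had 1 higher and 1 lower of 13 there. Of all genes tested 14.2% were higher and 12.3% lower between these classes, so that this last count lay near the share of all genes.

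Levels summed over a class do not say how many cells carry them, so each cell was thinned to 2000 UMIs and a cell was called high with at least 20 UMIs of the 10 genes, 100 per 10000. Thinning kept 25574 cells and left out 3250 shallower ones. Macrophage-like cells had the largest share of high cells, 67.2, 50, 58.1 and 54.8%, with a mean of 57.5% ± 7.27 (SD, n = 4). The exact 95% binomial interval for a single mouse, which covers counting error only, was 54.0 to 78.7% in the Adult Low fiber mouse with 61 cells. Monocyte or dendritic-like cells had 38.4% ± 9.99, smooth muscle-like cells 33.1% ± 10.9, granulocyte-like cells 29.1% ± 7.35 and microglia-like cells 25.8% ± 2.65 high cells (SD, n = 4 each).

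In the microglia-like class 358 of 1434, 327 of 1441, 412 of 1548 and 426 of 1471 cells were high, by mouse 25, 22.7, 26.6 and 29.0%. In endothelial-like cells 22 of 1882, 42 of 2408, 38 of 1454 and 58 of 1964 were high, by mouse 1.17, 1.74, 2.61 and 2.95%. In the astrocyte-like class it was 2 of 1308, 2 of 952 and 1 of 984 cells, and 0 of 1467 in the Adult High fiber mouse, which allows a share of up to 0.204%. No red cell-like barcode and no olfactory ensheathing-like cell was high in any mouse. The unthinned share was close, 23.6, 22.4, 25.5 and 26.9% in microglia-like cells.

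**Figure D3:**
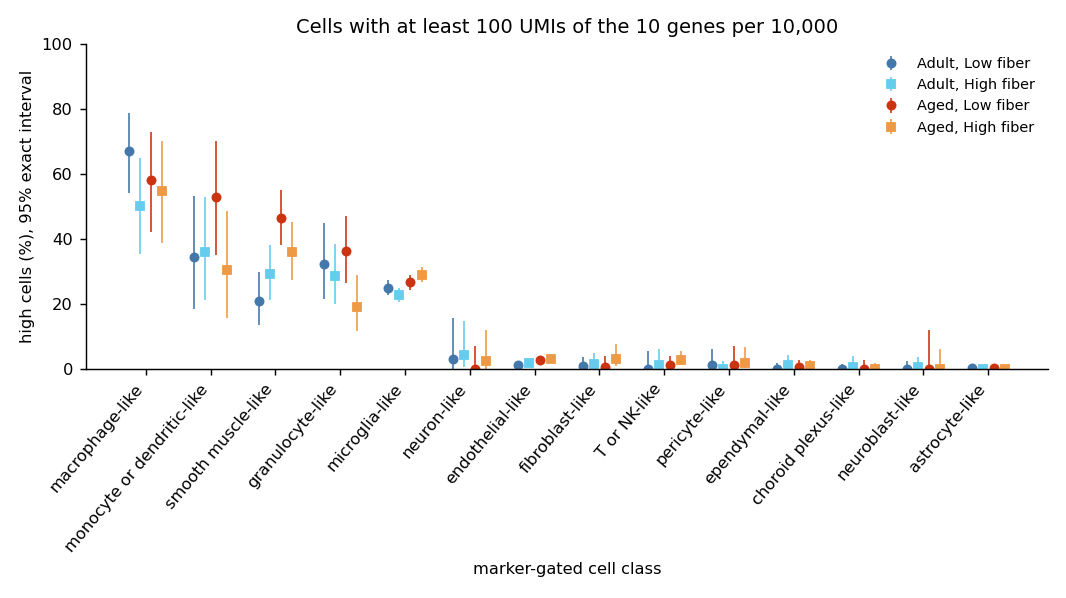
Share of cells with at least 100 UMIs of the 10 genes per 10000, after thinning to 2000 UMIs, in each class and mouse, with exact 95% binomial intervals. Macrophage-like cells lie between 50 and 67.2%, microglia-like cells between 22.7 and 29.0% and endothelial-like cells between 1.17 and 2.95%.

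Microglia-like cells showed no gap in the levels per cell at the threshold. Within 20% of it lay 10.8 to 15.7% of them. The share fell from 51.2% at or above 50 UMIs per 10000 to 25.8% at 100, 10.0% at 200 and 3.89% at 300. In macrophage-like cells 16.4, 0, 11.6 and 7.14% by mouse lay within 20% of the threshold, and 40.3% were still at or above 200. Smooth muscle-like cells fell from 51.3% at 50 to 7.28% at 200, and in them the median cell moved between mice, from 20 and 30 per 10000 in the Adult to 82.5 and 75 in the Aged mice. In astrocyte-like cells 45.2% had any UMI of the 10 genes after thinning. High granulocyte-like cells were shallower than the others, with medians of 3060.5 to 3404 UMIs against 6748 to 7642, a difference whose part in their share was not tested. High microglia-like cells had 6253.5 to 6584 against 6603.5 to 7543, and a mitochondrial share of 1.99 to 2.86% against 2.38 to 3.48%.

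**Figure D4:**
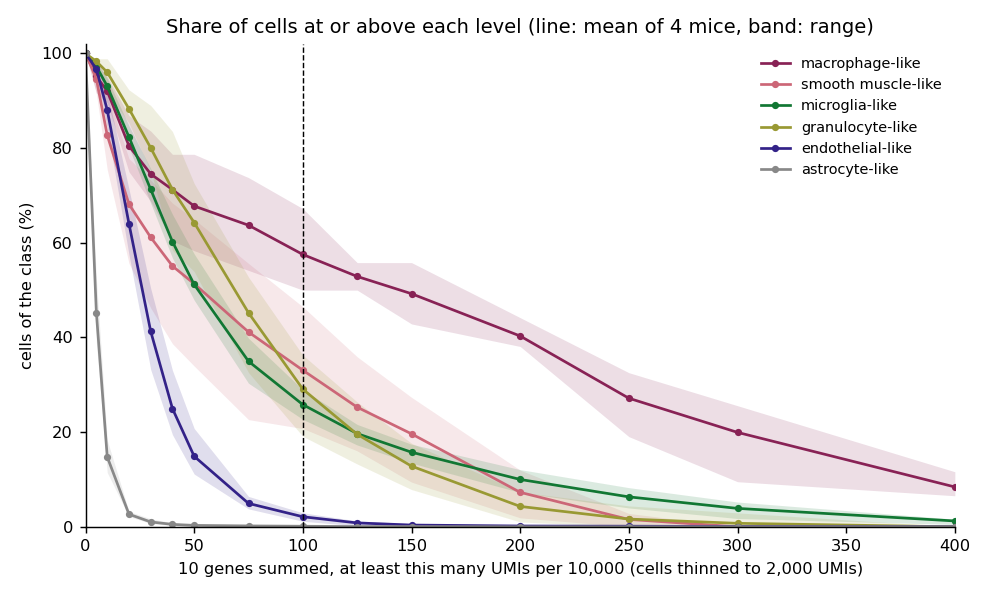
Share of cells (%) whose summed level of the 10 genes is at or above each value on the horizontal axis (UMIs per 10000, cells thinned to 2000 UMIs), as the mean of 4 mice with their range as a band. The dashed line is at 100, where macrophage-like cells stand at 57.5%, microglia-like cells at 25.8% and astrocyte-like cells at 0.116%.

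The number of the 10 genes seen in a cell also differed by class, a mean that does not say whether genes were seen together. After thinning, a macrophage-like cell showed 5.24 of the 10 genes on average (4.90 to 5.69 over mice), a monocyte or dendritic-like cell 5.23, a granulocyte-like cell 4.62, a smooth muscle-like cell 4.46 and a microglia-like cell 3.85 (3.60 to 4.18). Endothelial-like cells showed 2.83 and astrocyte-like cells 0.598, with none of the 10 seen in 54.8% of the latter and in 2.74% of microglia-like cells. Within microglia-like cells the levels of *Jun* and *Jund* correlated most, at 0.59 (0.53 to 0.63 over the 4 mice), followed by *Junb* and *Zfp36* at 0.58 (0.50 to 0.64). Other pairs led in other classes. In macrophage-like cells it was *Fos* with *Zfp36* (0.65), in smooth muscle-like cells *Fos* with *Junb* (0.60), in granulocyte-like cells *Junb* with *Jund* (0.53) and in endothelial-like cells *Fos* with *Egr1* (0.49). *Ier3* stood apart in endothelial-like cells, at -0.00642 with *Egr1* and -0.0151 with *Fosb*. These correlations are descriptions over cells of 1 library, share its depth and carry no test.

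Genes most like the summed members over the 56 sums of 14 classes and 4 mice, among 3524 genes, were *Btg2* (*r* = 0.91), *Dusp1* (0.90), *Socs3* (0.88), *Klf6* (0.85), *Nfkbiz* (0.85), *Capzb* (0.83), *Runx1* (0.83), *Tmsb4x* (0.81), *Mcl1* (0.80) and *Cyba* (0.80). Points of 1 mouse share a library and points of 1 class a cell type, so no test was made. Within cells of the 3 largest classes the order was different, with *Btg2* first again (0.396 on average, 0.635 in microglia-like, 0.36 in endothelial-like and 0.193 in astrocyte-like cells), followed by *H3f3b* (0.322), *Dusp1* (0.318), *Rhob* (0.315), *Klf2* (0.31), *Ier5* (0.274), *Klf6* (0.268), *Hspa1a* (0.25) and *Btg1* (0.243). *Btg2* is an antiproliferative early gene and *Dusp1* a phosphatase that switches MAP kinases off. Of the members, *Zfp36* was most like the other 9 over the 56 sums (0.885) and *Egr1* least (0.589).

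For age, the 2 Aged mice were compared with the 2 Adult mice, diets pooled, in each class with edgeR's quasi-likelihood test. Of the members, 6 rose in microglia-like cells (7.48% of all genes called), 6 in smooth muscle-like cells (3.69%) and 6 in astrocyte-like cells (2.83%). Endothelial-like cells had 2 that rose and 1 that fell (2.4%), T or NK-like cells 3 that rose (0.676%) and pericyte-like cells 2 (0.419%). *Ier3*, *Egr1*, *Atf3* and *Junb* were each called in 4 classes, all rises but for *Atf3* in endothelial-like cells, and *Jund* in 0. A list of 12 heat shock genes, induced by heat and protein damage, was also summed. In 13 of 14 classes, all from the same 4 libraries, the summed level was lower in both Aged than in both Adult mice. It stood at 76.9, 62.2, 41.2 and 40.4 UMIs per 10000 in microglia-like cells, 96.7, 86.3, 50.9 and 56 in endothelial-like cells, 70.1, 65.7, 52.2 and 54.1 in smooth muscle-like cells and 22.9, 22.1, 19 and 20.2 in astrocyte-like cells. The median log2 fold change of the members in these classes was 0.60, 0.39, 0.70 and 0.65, in the same order. It was -0.043 in macrophage-like, -0.034 in choroid plexus-like and -0.27 in neuron-like cells. The part of dissociation or RNA quality in what follows was not tested.

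In microglia-like cells 6 of 10 members were higher in Aged mice and 0 lower, where 7.48% of all 14331 genes tested were called. *Ier3* rose from 0.936 and 0.901 to 1.77 and 2.27 (log2 fold change 1.35, SE 0.13, adjusted *p* = 0.000233). *Atf3* rose from 1.90 and 2.20 to 3.79 and 3.37 (1.01, SE 0.089, adjusted *p* = 0.000115). *Junb* rose from 10.4 and 11.3 to 15 and 15.4 (0.70, SE 0.11). Each of the 6 had both Aged mice above both Adult mice, as did *Fos* and *Fosb*.

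*Ier2* (0.69, SE 0.11), *Egr1* (0.62, SE 0.093) and *Zfp36* (0.59, SE 0.098, adjusted *p* = 0.00389) completed the 6. The mRNA decay factor *Zfp36* stood at 8 and 8.47 in Adult and 10.7 and 10.8 in Aged mice. *Fos* (0.57, adjusted *p* = 0.00401) and *Fosb* (0.32, adjusted *p* = 0.0428) missed the fold. *Jun* and *Jund* had lower levels per 10000 in both Aged mice. *Jun* stood at 28.4 and 27.5 against 23.9 and 24.7, and *Jund* at 15.4 and 15.7 against 12.7 and 13.5. Their fitted changes were 0.01 (SE 0.12) and -0.04 (SE 0.11), each smaller than its SE. Scaled by total UMIs they were -0.20 and -0.25, so that the size, and for *Jun* the sign, depends on the scaling. Scaling by total UMIs in place of TMM shifted the median of all genes in this class to -0.21, gave 656 higher and 710 lower genes in place of 904 and 168, and left 2 members called, *Atf3* (0.80, adjusted *p* = 0.000131) and *Ier3* (1.14, adjusted *p* = 2.02e-05). Without the Adult Low fiber mouse 2 members were called. Microglia-like cells' own 10 markers summed to 260 per 10000 in Adult and 189 in Aged mice, and their part in these values was not tested.

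Some genes of other lists were called beside the members in microglia-like cells. Of 12 inflammatory cytokines and chemokines 10 rose and 1 fell, with *Il1b* (2.45, SE 0.13), *Tnf* (2.15, SE 0.19) and *Csf1* (2.59, SE 0.15) among them. Of 14 stress and growth arrest genes 3 rose, the largest *Gadd45b*, from 0.0992 and 0.102 to 0.491 and 0.691 (2.76, SE 0.20, adjusted *p* = 4.16e-05). Feedback regulators of MAP kinase and NF-κB signalling had 4 of 14 higher, namely *Dusp2*, *Nfkbia*, *Nfkbiz* and *Dusp1*. Among 19 other immediate early regulators 4 rose, namely *Maff*, *Egr2*, *Nr4a1* and *Egr3*, with medians over the list of 0.22 and over all genes of -0.01. Heat shock genes went the other way, 7 of 12 lower and 0 higher, with *Hspa1a* at 15.9 and 10.7 against 6.36 and 6.17. Matricellular and vascular early response genes had 3 of 11 higher and 1 lower, and the 13 upstream kinases and serum response factors had a median of -0.14 with no call. These counts are from TMM fits, and the same counts with scaling by total UMIs are not given here. Summed per 10000, all 24 other immediate early regulators stood at 41.25, 40.24, 38.71 and 39.81, lower in both Aged mice. Stress and growth arrest genes were also lower in both, at 33.99, 31.84, 31.17 and 28.63. Feedback regulators overlapped between ages. The inflammatory and matricellular sums were higher in both Aged mice, and the upstream sum lower. The lists were chosen with earlier results of these data known.

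Smooth muscle-like cells had 6 of 10 members higher and 0 lower in Aged mice, where 3.69% of all genes were called. *Ier3* rose from 2.63 and 2.94 to 5.33 and 6.30 (1.09, SE 0.11, adjusted *p* = 0.000246), *Egr1* from 1.95 and 2.65 to 5.26 and 4.59 (1.13, SE 0.14, adjusted *p* = 0.000702) and *Atf3* from 0.745 and 2.26 to 5.31 and 2.56 (1.42, SE 0.37, adjusted *p* = 0.0488). In each the Aged mice were above the Adult mice, though *Atf3* by little between Adult High fiber and Aged High fiber. *Ier2* (0.90, SE 0.14), *Junb* (0.75, SE 0.11) and *Zfp36* (0.66, SE 0.14) also rose, and the members not called, *Fos* (0.53, adjusted *p* = 0.0266), *Jun* (0.50), *Jund* (0.42) and *Fosb* (0.37), were above 0 as well. Under the stricter gate 2 were called, *Egr1* (0.91) and *Ier3* (0.71). Without the Adult Low fiber mouse fewer were called and without the Adult High fiber mouse more, with a lone Adult mouse in each fit. The share of all genes called in those fits is not given.

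Beside them, 4 of 16 other immediate early regulators rose and 1 fell in smooth muscle-like cells, 4 of 12 feedback regulators and 4 of 9 matricellular and vascular early response genes rose, and 4 of 12 heat shock genes fell. Markers of macrophages in the smooth muscle-like sums were at 0.131, 0.365, 0.710 and 1.08 per 10000, 0.606% of the macrophage-like level on average, with 2 of 8 seen in every mouse, and those of microglia at 2.12, 0.890, 1.92 and 2.30, with 10 of 10 seen in every mouse. Their part in the result was not tested.

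**Figure D5:**
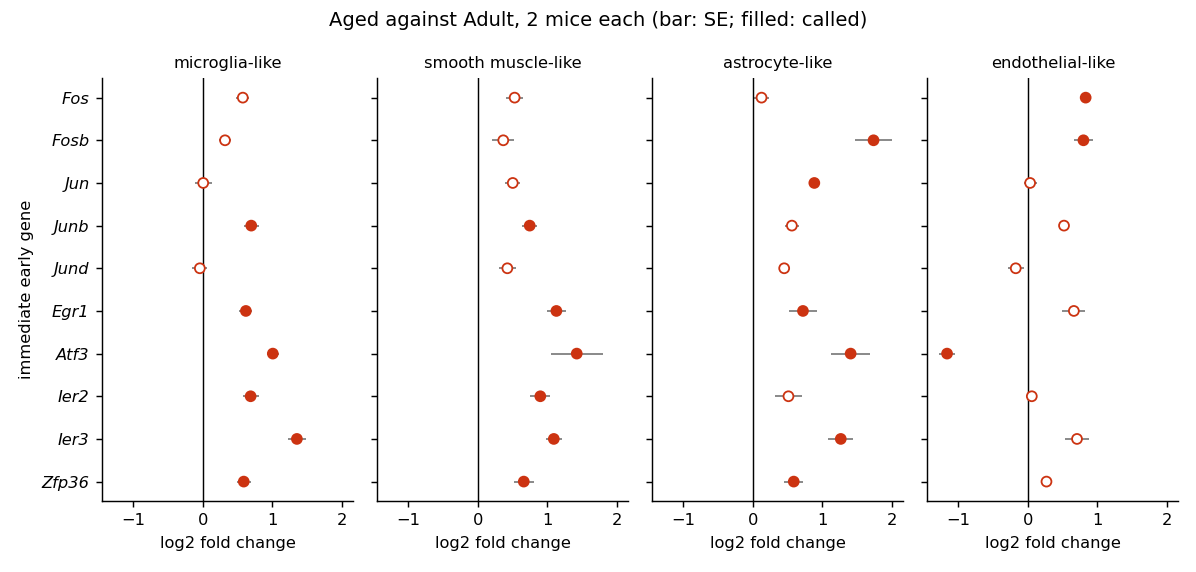
Log2 fold change of each gene in Aged against Adult mice (2 each) in 4 classes, with bars of 1 SE and filled points for calls. *Ier3* and *Atf3* lie right of 0 in microglia-like, smooth muscle-like and astrocyte-like cells, and *Atf3* lies at -1.16 in endothelial-like cells. In microglia-like cells *Jun* and *Jund* lie at 0.01 and -0.04, and both below 0 when scaled by total UMIs.

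Endothelial-like cells had 2 of 10 members higher and 1 lower, where 2.4% of all genes were called. *Fos* rose from 0.782 and 0.720 to 1.33 and 1.31 (0.83, SE 0.067, adjusted *p* = 0.000884) and *Fosb* from 0.251 and 0.305 to 0.419 and 0.536 (0.80, SE 0.13, adjusted *p* = 0.0178). *Atf3* fell from 0.795 and 0.617 to 0.326 and 0.298 (-1.16, SE 0.12, adjusted *p* = 0.00196), while it rose in microglia-like, smooth muscle-like and astrocyte-like cells. *Junb* (0.52, adjusted *p* = 0.0113) missed the fold, and *Ier3* (0.71, adjusted *p* = 0.0566) and *Egr1* (0.66, adjusted *p* = 0.0607) the adjusted *p*. Without the Adult Low fiber mouse 5 members were called.

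In the same cells 7 of 12 heat shock genes fell and 0 rose, *Hsph1* from 0.946 and 0.722 to 0.196 and 0.190 (-2.09, SE 0.13, adjusted *p* = 0.000434). The 18 other immediate early regulators had a median of -0.06 with no call, 1 of 15 feedback regulators rose (*Socs3*, 0.59), 1 of 14 stress genes rose (*Fkbp5*, 0.94), 4 of 12 inflammatory genes rose and of 11 matricellular genes 1 rose (*Thbs1*) and 1 fell (*Plaur*, -0.71). Microglia markers in endothelial-like sums were at 1.41, 1.37, 2.04 and 1.73 per 10000, 0.731% of the microglia-like level. Of these, 10 of 10 were seen in every mouse and 9 of 10 were higher on average in Aged mice. *Fos* and *Fosb* were higher and *Atf3* lower in those mice, and the part of the markers in any of these changes was not tested.

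In astrocyte-like cells 6 of 10 members rose and 0 fell, where 2.83% of all genes were called, all at low levels. *Jun* rose from 0.698 and 0.765 to 1.35 and 1.32 (0.88, SE 0.078, adjusted *p* = 3.09e-06), *Ier3* from 0.0972 and 0.0802 to 0.173 and 0.247 (1.26, SE 0.18, adjusted *p* = 0.00036) and *Fosb* from 0.0251 and 0.0189 to 0.0690 and 0.0754 (1.73, SE 0.27, adjusted *p* = 0.000836). *Atf3* (1.41, SE 0.28), *Egr1* (0.72, SE 0.20, adjusted *p* = 0.0498) and *Zfp36* (0.59, SE 0.13) were the others. *Fos* did not pass, with 0.573, 0.545, 0.683 and 0.522 (0.12, SE 0.11, adjusted *p* = 0.556). Microglia markers in the same sums were at 2.12 and 1.97 per 10000 in Adult and 2.51 and 2.71 in Aged mice, 1.04% of the microglia-like level, with 10 of 10 seen in every mouse and 10 of 10 higher on average in Aged mice. Set against the microglia-like level of the same gene, the astrocyte-like *Atf3* stood at 2.27%, *Zfp36* at 2.55%, *Jun* at 3.96%, *Egr1* at 4.41%, *Ier3* at 10.2% and *Fosb* at 11.3%.

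Under the stricter gate the microglia markers in astrocyte-like sums were at 1.73, 1.76, 2.17 and 2.03, and 1 member, *Ier3*, was called in place of 6. After thinning 2 were called. Of the lists, 6 of 8 inflammatory genes rose in astrocyte-like cells, among them *Tnf* and *Ccl12*, which stood at 0.0290 and 0.0852 per 10000 or less in every mouse, while 4 of 18 other immediate early regulators fell and 0 rose. These were *Nr4a3* (-2.19, SE 0.41), *Nr4a2* (-1.31, SE 0.27), *Fosl2* (-1.30, SE 0.35) and *Nr4a1* (-0.61, SE 0.16), orphan nuclear receptors and an AP-1 subunit. *Socs3* alone of 14 feedback regulators rose (1.44, SE 0.30), 2 of 14 stress genes rose (*Gadd45b* and *Sgk1*) and 1 of 12 heat shock genes fell (*Hsph1*).

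The age effects of the 3 largest classes were compared directly in 1 fit. The change of *Atf3* was 2.17 log2 greater in microglia-like than in endothelial-like cells (SE 0.13, adjusted *p* = 1.66e-11) and the endothelial-like change less the astrocyte-like one was -2.56 (SE 0.33, adjusted *p* = 1.85e-05). Of the 10 members, 3 differed between microglia-like and endothelial-like cells, where 4.5% of all genes did, 2 between microglia-like and astrocyte-like cells (3.22%) and 4 between endothelial-like and astrocyte-like cells (1.53%). Without the Adult Low fiber mouse the first of these counts was 1. The remaining values stand in the closing section.

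Smaller classes gave fewer calls. In T or NK-like cells 3 of 9 members rose (0.676% of all genes called), namely *Ier3* from 0.117 and 0.125 to 0.602 and 0.564 (2.33, SE 0.31, adjusted *p* = 0.00419), *Egr1* from 0.186 and 0.321 to 0.694 and 0.803 (1.60, SE 0.28) and *Jun* from 2.56 and 3.94 to 5.54 and 6.93 (1.01, SE 0.18). The Adult sums held 71 and 89 cells and the Aged sums 184 and 283. Pericyte-like cells had 2 of 8 higher (0.419%), *Junb* from 0.676 and 0.747 to 1.84 and 1.81 (1.33, SE 0.23, adjusted *p* = 0.00253) and *Fos* (1.85, SE 0.395, adjusted *p* = 0.0231), which stood at 0.476 and 0.323 in Adult and 0.521 and 2.08 in Aged mice and so was high only in the Aged High fiber mouse. DESeq2, the stricter gate and thinning each left 0 pericyte-like members called, and in T or NK-like cells 1 was called under the stricter gate and 1 after thinning. Without the Aged High fiber mouse 1 pericyte-like call was left, without the Adult Low fiber mouse there were 4 and without the Aged Low fiber mouse 5. Microglia markers were at 1.14, 2.64, 1.97 and 1.5 per 10000 in T or NK-like sums and 1.95, 2.46, 2.3 and 1.91 in pericyte-like sums, which also held endothelial markers at 10.3, 9.56, 11.1 and 14.5, and their part in these calls was not tested.

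In ependymal-like cells 1 of 10 rose (2.21%), *Junb* from 0.162 and 0.361 to 0.511 and 0.536 (1.07, SE 0.24, adjusted *p* = 0.0245), lost without the Adult Low fiber mouse, whereas 5 were called without the Adult High fiber mouse and 4 without the Aged Low fiber mouse. Heat shock genes there fell in 10 of 12. In choroid plexus-like cells 1 of 7 fell (2.7%), *Jun* from 0.541 and 0.717 to 0.436 and 0.234 (-0.77, SE 0.22, adjusted *p* = 0.048). This call was lost without either Adult mouse, and 3 were made without the Aged Low fiber mouse. Scaling by total UMIs gave 86 higher and 106 lower genes in this class in place of 214 and 39, with a median of all genes of -0.19, and kept the *Jun* call at -0.94. Microglia markers there were at 1.19, 0.882, 1.5 and 1.67 per 10000.

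No member was called in macrophage-like cells (0.214% of all genes called, 1 of 10 members at an unadjusted edgeR *p* under 0.05), monocyte or dendritic-like cells (0%, 3 of 10) or granulocyte-like cells (1.61%, 2 of 10). The same held for fibroblast-like (0.143%, 3 of 10), neuroblast-like (0.292%, 4 of 7) and neuron-like cells (0.382%, 2 of 7). DESeq2 called 0 in each of these 6 classes as well. Leaving out 1 mouse gave up to 4 calls, namely 4 in fibroblast-like, 2 in monocyte or dendritic-like, 2 in neuroblast-like and 2 in neuron-like cells without the Adult High fiber mouse, 2 in fibroblast-like and 3 in neuroblast-like cells without the Aged Low fiber mouse, 1 in granulocyte-like cells without the Adult Low fiber mouse, and 2 in monocyte or dendritic-like and 1 each in macrophage-like, neuroblast-like and neuron-like cells without the Aged High fiber mouse. These classes held 138 to 630 cells. B-like cells, with 14 to 21 thinned cells a mouse and no test, had *Fos* at 1.41, 0.882, 13.6 and 9.83.

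The share of high cells rose with the levels in some classes but could not be tested at 0.05. In smooth muscle-like cells it was 20.8 and 29.2% in Adult and 46.5 and 35.9% in Aged mice, a difference of 16.2 percentage points (exact permutation *p* = 0.333, the smallest possible). Under the stricter gate the shares in these cells were 29.8 and 46.8% in Adult and 52.1 and 43.8% in Aged mice, which overlapped, and the difference was 9.68 points (exact permutation *p* = 0.667). Both Aged mice were also above both Adult mice in microglia-like (by 3.96 points), endothelial-like (by 1.33 points) and pericyte-like cells (by 1.02 points). In neuron-like cells both Aged mice were below both Adult mice, a difference of -2.55 points. Each had the same exact permutation *p*, and the pericyte-like and neuron-like shares rest on 0 to 2 high cells a mouse. In macrophage-like cells the difference was -2.16 points (exact permutation *p* = 1), and it turned to 6.45 without the Adult Low fiber mouse. In monocyte or dendritic-like cells 6.49 points turned to -4.83 without the Aged Low fiber mouse, and in granulocyte-like cells -2.78 turned to 5.80 without the Aged High fiber mouse.

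Diet was tested as High against Low fiber with age as a term. None of the 10 members was called in microglia-like cells (0.00698% of all genes called, 1 member at an unadjusted edgeR *p* under 0.05), in endothelial-like cells (0%, 3 members) or in astrocyte-like cells (0.194%, 2 members), and DESeq2 called 0 in each. Nor was any called in macrophage-like (0.235%), monocyte or dendritic-like (0.269%), granulocyte-like (0%), pericyte-like (0.0289%), smooth muscle-like (0.331%) or neuron-like cells (0.919%). The numbers at an unadjusted edgeR *p* under 0.05 in these were 0, 1, 5, 3, 0 and 1, and DESeq2 called 0 in each.

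Between them 5 classes had 10 calls, all higher on High fiber. In ependymal-like cells (0.353% of all genes called) *Fos* stood at 0.133 and 0.819 on Low and 1.01 and 1.40 on High fiber (1.41, SE 0.18, adjusted *p* = 1.29e-06), and *Fosb* (2.13, SE 0.26), *Egr1* (1.26, SE 0.20) and *Ier2* (1.16, SE 0.20) rose too. The Adult Low fiber mouse was lowest for *Fos*, *Fosb* and *Egr1*. Fibroblast-like cells (0.162%) had *Fos* at 0.817 and 1.04 against 1.87 and 2.82 (1.32, SE 0.14, adjusted *p* = 0.0101) and *Fosb* (1.26, SE 0.17). Choroid plexus-like cells (0.267%) had *Ier2* (1.57, SE 0.295) and *Junb* (1.16, SE 0.24), T or NK-like cells (1.06%) *Fosb* (1.07, SE 0.22, adjusted *p* = 0.0015) and neuroblast-like cells (0.152%) *Fos* (0.82, SE 0.21, adjusted *p* = 0.0463). Under the stricter gate *Ier2* in choroid plexus-like cells turned to -0.42 and *Fosb* in ependymal-like cells to -0.027, and with no upper limit on UMIs the former stood at -0.86. With age left out of the model none of the 10 was called, and with DESeq2 1 was, so these calls depend on the age term. The fit has 1 residual degree of freedom among mice, and edgeR adds variance information shared across genes.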

How the data were processed

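Gene by cell UMI counts of 4 mouse brains were used as deposited. The authors made these counts with Cell Ranger (version 3.1.0) on GRCm38 with an Ensembl 98 annotation limited to protein coding, antisense, long intergenic and immune receptor biotypes, with no normalization. Barcodes within 3 median absolute deviations (constant 1.4826) of the median UMIs (at most 22005) and mitochondrial share (at most 15.8%) were kept. A cell joined a class when its mean marker level, as a share of that class's seed cells, was at least 0.3, at least 1.5 times that of any other class, and at least 3 markers were seen. A stricter gate used 0.5 and 3 times. No doublet caller was run, and 1669 kept cells had a margin between 1.25 and 1.75.

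Counts were summed per class and mouse and tested with edgeR (version 4.0.16, quasi-likelihood, TMM, Benjamini-Hochberg adjustment over all genes passing its filter) in R (version 4.3.3). A call needed an adjusted *p* below 0.05 and a fold over 1.5. Fits for age pooled diets and fits for diet had age as a term. Fits between classes had mouse as a block, and age effects of classes were compared by an interaction term. Alternatives were DESeq2 (version 1.42.0), no filter on low counts, the stricter gate, no upper limit on UMIs, thinning to 2000 UMIs (seed 11), diet as a term or no age term, and leaving out each mouse. Scaling by total UMIs and high shares without thinning were added after the data were seen. Cells were thinned to 2000 UMIs to set shares side by side, the 95% intervals are exact binomial and a share of 0 allows up to 3 counts. Intervals cover counting error only.

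Members, markers and lists were chosen with earlier results of these data known. Genes named outside the 10 were those called with age from the other lists, at most 6 a list and class in microglia-like, endothelial-like and astrocyte-like cells by size of change, and the 10 genes with the highest Pearson correlation with the summed members over class sums (log2 with 0.1 added) and within cells. Some genes that this rule would name are not reported here. Since each age and diet had 1 mouse, *p*-values for age rest on the spread between these 4 mice within an age. Those for diet rest on what is left of the spread between mice after the age term. Both also draw on variance that edgeR shares across genes, so a small *p* does not come from the spread of that gene alone. The *p*-values between classes and of the interaction had mouse as a block. They rest on what is left between class sums and do not measure the spread in level between mice. The counts come from the 3′ ends of transcripts, so levels were not ranked between genes. In a class sum, fewer induced cells and less RNA per cell cannot be told apart other than by the per-cell values given.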

Additional observations from a re-analysis of the deposited data

Results flagged for a closer look

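The effect of age on a member differed between the 3 largest classes in 9 cases, each by an interaction term in edgeR with an adjusted *p* below 0.05 and a fold over 1.5. A positive value means that the change from Adult to Aged was greater in the class named first. The values are those of 4 mice, the same ones in every class.

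Between microglia-like and endothelial-like cells, *Atf3* differed by 2.17 log2 (adjusted *p* = 1.66e-11), *Ier3* by 0.66 (adjusted *p* = 4.58e-06) and *Ier2* by 0.64 (adjusted *p* = 0.000136). *Atf3* was called higher with age in the former class and lower in the latter, whereas *Ier2* stood at 2.37, 2.39, 2.44 and 2.45 per 10000 in endothelial-like cells. Between microglia-like and astrocyte-like cells, *Fosb* differed by -1.41 (adjusted *p* = 0.00134) and *Jun* by -0.87 (adjusted *p* = 1.65e-05), so that both had the greater change in astrocyte-like cells.

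Between endothelial-like and astrocyte-like cells, *Atf3* differed by -2.56 (adjusted *p* = 1.85e-05), *Jun* by -0.85 (adjusted *p* = 6.81e-05), *Jund* by -0.63 (adjusted *p* = 0.000891) and *Fos* by 0.72 (adjusted *p* = 0.00238). *Fos* rose in endothelial-like cells and stood at 0.573, 0.545, 0.683 and 0.522 in astrocyte-like cells. *Jun* in endothelial-like cells was at 10.2, 9.25, 9.03 and 10.6, with overlapping ages. Microglia markers in astrocyte-like sums were 10 of 10 higher on average in Aged mice, and their part in these differences was not tested.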

How the results depend on the processing

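The causes of the changes below were not tested. Counts of members called under an alternative, here and above, mostly stand without the share of all genes called in that fit. They cannot be read against that share. Of 28 member calls for age, 8 were kept under every alternative with all mice and 7 also without each mouse, namely *Atf3* in endothelial-like and microglia-like cells, *Egr1* in smooth muscle-like cells, *Fos* in endothelial-like cells, and *Ier3* in astrocyte-like, microglia-like and smooth muscle-like cells. None changed sign. DESeq2 kept 20, diet as a term 28, no filter on low counts 26, no upper limit on UMIs 27, scaling by total UMIs 22 and the stricter gate 13 of 28, and thinning 17 of 26. Of 46 calls between classes 42 were kept under every alternative that could be run on them, where the stricter gate covered 38 of the 46. With all mice the 9 interaction calls were rerun only with total UMIs, the stricter gate and thinning, and 3 were kept under these. Fewer were kept when each mouse was left out as well. DESeq2, no filter and no upper limit on UMIs were not run on the interaction. Of 10 diet calls none was kept under all, and edgeR called 0 of them without an age term.

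The number of members called for age moved by over 1.5 times, or to or from 0, as follows. DESeq2 gave 0 in pericyte-like, ependymal-like and choroid plexus-like cells. No filter gave 5 in endothelial-like, 4 in pericyte-like, 3 in fibroblast-like, 4 in ependymal-like, 2 in choroid plexus-like, 2 in neuroblast-like and 1 in neuron-like cells. The stricter gate gave 1 in T or NK-like, 5 in endothelial-like, 0 in pericyte-like, 2 in smooth muscle-like, 1 in astrocyte-like, 3 in ependymal-like, 0 in choroid plexus-like and 2 in neuron-like cells. No upper limit gave 1 in macrophage-like, 1 in granulocyte-like, 5 in endothelial-like and 2 in ependymal-like cells. Thinning gave 1 in T or NK-like, 0 in pericyte-like, 2 in astrocyte-like, 0 in ependymal-like and 0 in choroid plexus-like cells. Diet as a term gave 4 in ependymal-like, 2 in choroid plexus-like, 1 in neuroblast-like and 1 in neuron-like cells, and total UMIs 2 in microglia-like cells. Smaller moves included 2 in T or NK-like, 5 in smooth muscle-like and 4 in astrocyte-like cells with DESeq2, and 4 in astrocyte-like cells with total UMIs. Over all genes DESeq2 called 222 in endothelial-like, 167 in astrocyte-like and 122 in smooth muscle-like cells where edgeR called 355, 422 and 335. No filter gave 710 in microglia-like (1072 with it), 786 in endothelial-like and 537 in smooth muscle-like cells, and thinning 557 in microglia-like and 174 in smooth muscle-like cells.

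For diet, DESeq2 gave 0 members in T or NK-like, ependymal-like, choroid plexus-like and neuroblast-like cells and 1 in fibroblast-like cells. No age term gave 0 in all 5 classes. Thinning gave 0 in T or NK-like, fibroblast-like, ependymal-like and choroid plexus-like cells, the stricter gate 0 in ependymal-like and choroid plexus-like cells, no upper limit 0 in fibroblast-like, choroid plexus-like and neuroblast-like cells and 1 in astrocyte-like cells, and no filter and total UMIs each 0 in neuroblast-like cells. The diet change of *Fosb* in ependymal-like cells turned to -0.027 under the stricter gate, and that of *Ier2* in choroid plexus-like cells to -0.42 under it and -0.86 with no upper limit. Thinning gave 5 members between macrophage-like and microglia-like cells. Between the age effects of microglia-like and astrocyte-like cells the stricter gate gave 0 and thinning 1.

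Without 1 mouse, where the lone mouse of an age is assumed to vary like the others, the age counts ran from 2 to 6 in microglia-like, 0 to 1 in macrophage-like, 0 to 2 in monocyte or dendritic-like, 0 to 1 in granulocyte-like, 3 to 5 in endothelial-like, 1 to 5 in pericyte-like, 4 to 10 in smooth muscle-like, 0 to 4 in fibroblast-like, 0 to 5 in ependymal-like, 0 to 3 in choroid plexus-like, 0 to 3 in neuroblast-like and 0 to 2 in neuron-like cells, and from 1 to 4 between age effects of microglia-like and endothelial-like cells. The diet counts, then without an age term, ran from 0 to 1 in monocyte or dendritic-like, 0 to 0 in T or NK-like, 0 to 2 in pericyte-like, 0 to 1 in smooth muscle-like, 1 to 3 in fibroblast-like, 0 to 3 in ependymal-like, 0 to 1 in choroid plexus-like, 0 to 1 in neuroblast-like and 0 to 2 in neuron-like cells. The difference in high cells ran from -10.8 to 6.45 points in macrophage-like, -4.83 to 17.8 in monocyte or dendritic-like and -11.4 to 5.8 in granulocyte-like cells.

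The share of high cells at 50 and at 200 UMIs per 10000 was 67.8 and 40.3% in macrophage-like, 70.2 and 5.05% in monocyte or dendritic-like, 51.3 and 7.28% in smooth muscle-like, 64.3 and 4.3% in granulocyte-like, 51.2 and 10.0% in microglia-like and 14.9 and 0.166% in endothelial-like cells. Without *Fos* and *Jun* in the sum it was 33.5, 19.5, 14.4, 17.4, 14.2 and 0.454% in the same order, and without *Jund* 20.3% in microglia-like and 1.13% in endothelial-like cells. A threshold at the 90th percentile of all cells gave 29% in microglia-like cells, and the stricter gate 43.8% in granulocyte-like cells. The age difference turned to 1.68 points at 200 in macrophage-like cells and to -3.25 at 50 in monocyte or dendritic-like cells. In granulocyte-like cells it turned to 0.234 at 200, 3.28 under the stricter gate, 2.9 unthinned, and 4.92 unthinned with no upper limit.

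No paired analysis was possible because each age and diet had 1 mouse, as far as the comparisons of age and of diet go, while mouse was the block in those between classes. Under the stricter gate macrophage-like, monocyte or dendritic-like and neuroblast-like cells, and under thinning neuroblast-like cells, fell below 30 cells in a mouse and gave no value. At this depth low members of small classes, such as *Atf3* in T or NK-like cells, were a few UMIs a mouse, and absence cannot be read from them.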

Other observations

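Neuron-like cells, with 46 to 80 cells a mouse, had *Fos* at 5.89, 1.51, 0.754 and 2.48 UMIs per 10000, with no call for age (log2 fold change -1.16, adjusted *p* = 0.558 by edgeR). The Adult Low fiber mouse stood above the other 3 mice for *Fos*, *Egr1* (2.67 against 0.936 to 1.23) and *Ier2* (1.96 against 0.494 to 1.59). Microglia markers in the neuron-like sums ran from 1.35 to 6.25 per 10000.

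Inflammatory cytokines and chemokines were higher in both Aged than in both Adult mice, as a summed list, in 8 of 14 classes and lower in 0. The classes share the same 4 libraries and are not independent. In ependymal-like cells 3 of 4 tested rose (2.21% of all genes called), and in choroid plexus-like cells 2 of 3 (2.7%). Microglia markers stood at 1.59 to 2.38 and 0.882 to 1.67 per 10000 in those sums. The summed list was at 0.419, 0.352, 3.31 and 1.49 in ependymal-like and 0.154, 0.108, 0.321 and 0.425 in choroid plexus-like cells. In microglia-like cells it was at 9.59, 8.40, 28.8 and 29.6. The part of microglial RNA in the other sums was not tested.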
